A study of Mus musculus with 6 samples.

Results

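Ketone body metabolism was followed through 5 genes in the liver of male mice on a high-fat diet. The genes are Acat1, Bdh1, Bdh2, Slc16a1 and Slc16a7, out of 35082 genes with an entry in the libraries. They were chosen by their place in the pathway, though with earlier results of these data known. All 5 passed the filter on low counts, which left 12497 genes for testing. There were 3 control libraries from mice that carried floxed G3bp1 alleles (G3BP1f/f), with no Cre in the genotype given and titled wild-type, and 3 libraries from mice with the same floxed alleles and Alb-cre, a Cre recombinase driven by the albumin promoter and thereby aimed at hepatocytes. All mice were male, started the diet at 8 weeks of age and had free access to it for 20 weeks, so the diet was shared and its effect was not measured. Whether they were fasted before sampling, on which hepatic ketone production depends, is not stated in the labels. Nor do the labels say that each library came from a separate mouse, so p-values measure the spread between these libraries, which may be technical.

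Ketone bodies are made in the mitochondria of hepatocytes when fatty acids are burned faster than the citric acid cycle can take up their acetyl-CoA. Acetoacetyl-CoA thiolase (Acat1) joins acetyl-CoA units, further enzymes lead from the product to acetoacetate, and beta-hydroxybutyrate dehydrogenase (Bdh1) reduces it to beta-hydroxybutyrate. Monocarboxylate transporters then carry ketone bodies across the plasma membrane, and other tissues burn them through the transferase Oxct1, which hepatocytes are known to lack.

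Libraries held between 20899135 and 21750007 estimated counts, of which the 5 genes together took 0.0596% to 0.101%. G3bp1, the targeted gene, measured 34.8 to 44.1 CPM in controls and 30.0 to 44.0 CPM in the libraries labelled as knockout (log2 difference -0.18, edgeR adjusted p = 0.91). Summed reads may still be counted when part of the gene is removed, so this level is no test of the deletion. Since it did not separate the groups, the second group is called knockout-labelled throughout. CPM is the count scaled to a fixed library total after TMM scaling, which corrects for differences in the make-up of the libraries. All 8 hepatocyte markers examined were present in every library, at a summed 93440 to 120700 CPM in controls and 63710 to 110400 CPM in knockout-labelled libraries. Reads of protein-coding genes that were assigned to transcripts annotated as non-coding made up 5.50% in control replicate 1 and 5.86% in knockout-labelled replicate 1, against 2.79% to 3.90% in the other 4 libraries. Both libraries numbered 1 recur below as the ones that stand apart in some transcripts of the 5 genes. In the median share per gene they did not, as given below. In bulk tissue, fewer cells of a type and less RNA per cell cannot be told apart.

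None of the 5 genes differed between the groups beyond the spread of the libraries. The edgeR quasi-likelihood test called 0 of them at an adjusted p of 0.05, where it called 0% of all 12497 genes tested, and 0 of the 5 had an unadjusted p under 0.05, where 4.55% of all genes did (2.65% higher and 1.9% lower). DESeq2, which called 0.0881% of genes, also called 0 of the 5. For each gene at least 1 knockout-labelled library lay within the range of the controls or beyond it on the other side, whereas over all genes 9.34% had groups that did not overlap. Of the log2 differences 4 lay below 0 and 1 above, with a median of -0.15 against 0.01 for all genes tested. When library totals replaced the TMM factors, which moved all genes up together, 3 of the 5 lay above 0 and the medians were 0.11 for the 5 and 0.27 for all genes. Without knockout-labelled replicate 1 the median of the 5 was 0.01.

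Acat1, the thiolase that opens ketone synthesis and also acts in isoleucine breakdown, was the most abundant of the 5. The gene lies on chromosome 9, from 53580522 to 53610382 on the minus strand of GRCm38. Its levels were 405, 662 and 627 CPM in the controls (replicates 1 to 3) against 425, 556 and 584 CPM in the knockout-labelled libraries. The lowest library of each group was the one numbered 1, and the groups covered nearly the same range. The means were 565 ± 139.5 and 522 ± 85.1 CPM (SD, n = 3 each), a log2 difference of -0.11 and a standard error of 0.28 (edgeR adjusted p = 0.95). Its 95% interval ran from -0.75 to 0.52.

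Bdh1, the mitochondrial dehydrogenase that interconverts acetoacetate and beta-hydroxybutyrate, was likewise spread within the groups more than between them. It lies on chromosome 16, from 31422280 to 31458901 on the plus strand of GRCm38. Its levels were 150.2, 208 and 231 CPM in the controls (replicates 1 to 3) against 124, 213 and 195 CPM in the knockout-labelled libraries. Here too the libraries numbered 1 were the lowest of their groups. The means were 196 ± 41.5 and 177 ± 46.7 CPM (SD, n = 3 each), a log2 difference of -0.15 and a standard error of 0.28 (edgeR adjusted p = 0.94, 95% interval -0.78 to 0.49). Without control replicate 1 the difference was -0.31, and without knockout-labelled replicate 1 it was 0.05.

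Bdh2 encodes a cytosolic short-chain dehydrogenase that has been described both as a second beta-hydroxybutyrate dehydrogenase and as an enzyme of siderophore synthesis. It lies on chromosome 3, from 135281221 to 135304426 on the plus strand of GRCm38. Its levels were 11.7, 10.9 and 13.8 CPM in the controls (replicates 1 to 3) against 16.5, 5.71 and 5.32 CPM in the knockout-labelled libraries. Knockout-labelled replicate 1 was therefore the highest of all 6 libraries and the other knockout-labelled libraries the lowest. The means were 12.1 ± 1.48 and 9.17 ± 6.33 CPM (SD, n = 3 each), a log2 difference of -0.40 and a standard error of 0.42 (edgeR adjusted p = 0.89, 95% interval -1.38 to 0.57). Without knockout-labelled replicate 1 the difference was -1.14 (edgeR adjusted p = 0.16), and without replicate 2 or 3 of that group it was -0.16 or -0.13. The counts behind these values were 127 to 382 per library. Knockout-labelled replicates 2 and 3, where Bdh2 was low, also had the highest share of mitochondrial reads, 9.19% and 10.2% against 7.21% to 7.64% in the other 4 libraries, and the part of this in the Bdh2 value was not tested.

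Slc16a1 encodes MCT1, a proton-coupled transporter of lactate, pyruvate and ketone bodies found in many tissues. It lies on chromosome 3, from 104638668 to 104658462 on the plus strand of GRCm38. Its levels were 21.1, 46.2 and 21.7 CPM in the controls (replicates 1 to 3) against 31.4, 21.2 and 38.9 CPM in the knockout-labelled libraries. Control replicate 2 was the highest and control replicate 1 the lowest of all libraries, so the controls enclosed the other group. The means were 29.7 ± 14.3 and 30.5 ± 8.91 CPM (SD, n = 3 each), a log2 difference of 0.04 and a standard error of 0.36 (edgeR adjusted p = 0.99, 95% interval -0.77 to 0.85). Without control replicate 2 it was 0.51, and without knockout-labelled replicate 3 it was -0.17.

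Slc16a7 encodes MCT2, a related transporter with a higher affinity for its substrates, which rodent hepatocytes are known to express. It lies on chromosome 10, from 125219270 to 125389465 on the minus strand of GRCm38. Its levels were 74.7, 77.4 and 113.8 CPM in the controls (replicates 1 to 3) against 77.9, 83.3 and 64.0 CPM in the knockout-labelled libraries. Control replicate 3 stood above the other 5 libraries, which lay close together. The means were 88.6 ± 21.8 and 75.1 ± 9.96 CPM (SD, n = 3 each), a log2 difference of -0.24 and a standard error of 0.23 (edgeR adjusted p = 0.88, 95% interval -0.78 to 0.30). Without control replicate 3 the difference was -0.01. The same library had the highest summed level of the markers of several cell types. For 10 Kupffer cell and macrophage markers it stood at 714 CPM against 251 to 379 CPM in the other 5, and it was also highest for hepatocyte, stellate cell, cholangiocyte, neutrophil and T and NK cell markers. The part of these cells in the Slc16a7 value was not tested.

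**Figure D1:**
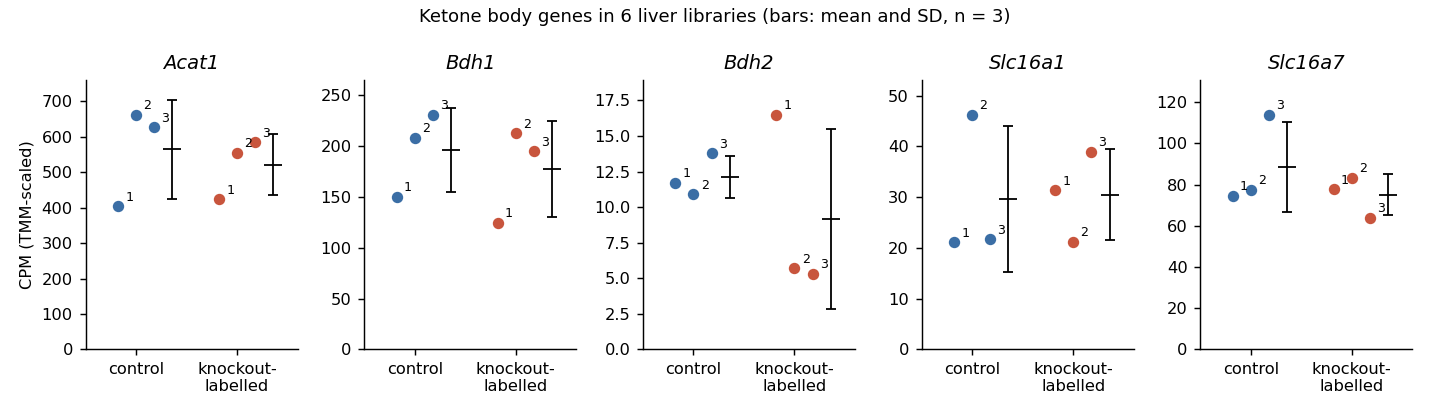
CPM of the 5 genes in each library (vertical axis, linear from 0, TMM-scaled) for controls and knockout-labelled libraries, with each point numbered by its replicate and bars giving mean and SD (n = 3). The groups overlap for every gene, and the libraries numbered 1 are the lowest of their group for Acat1 and Bdh1, whereas knockout-labelled replicate 1 is the highest for Bdh2 at 16.5 CPM.

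The intervals show which differences the values of each gene left possible. They are not adjusted for the number of genes tested, so a difference outside them could still miss the threshold. For Acat1, Bdh1 and Slc16a7 the 95% intervals held differences as far as -0.75, -0.78 and -0.78 on the log2 scale, and for Bdh2 as far as -1.38. On the upper side the intervals ended at 0.52, 0.49, 0.57 and 0.30 for Acat1, Bdh1, Bdh2 and Slc16a7, and at 0.85 for Slc16a1. Over 18 other ways of processing, none brought any of the 5 past the threshold, and the smallest adjusted p was 0.11, for Bdh2 without both libraries numbered 1.

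**Figure D2:**
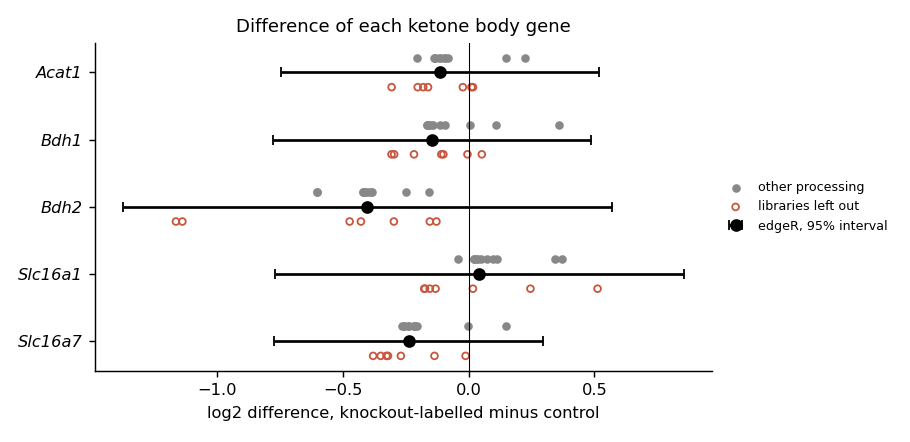
Log2 difference of each gene, knockout-labelled minus control (horizontal axis), with the edgeR estimate and its 95% interval in black, estimates with other processing as grey points and estimates with libraries left out as open circles. Every interval holds 0, and the estimates for Bdh2 without knockout-labelled replicate 1 lie apart at -1.14 and -1.17.

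Per unit of transcript length (deposited TPM summed per gene), the 5 genes were ordered Acat1, Bdh1, Slc16a7, Bdh2 and Slc16a1, with means over the 6 libraries of 161, 79.7, 20.0, 12.4 and 5.57 TPM. Acat1 exceeded Bdh1 in 6 of 6 libraries, by 1.61 to 2.90 times, and Bdh1 exceeded Slc16a7 in 6 of 6. The lower ranks were not separated, since Slc16a7 exceeded Bdh2 in 5 of 6 libraries and Bdh2 exceeded Slc16a1 in 5 of 6. In the exceptions, knockout-labelled replicate 1 stood at 20.1 TPM for Slc16a7 and 21.7 TPM for Bdh2, and knockout-labelled replicate 3 at 7.19 TPM for Bdh2 and 8.71 TPM for Slc16a1. These sums include transcripts annotated as non-coding. For Bdh2 1 of them, Bdh2-203, took 52% to 90% of the TPM, and 19.6 TPM in knockout-labelled replicate 1. The coding Bdh2-202 and Bdh2-201 stood at 0.38 to 3.35 and 0.56 to 1.85 TPM, against 3.19 to 8.71 TPM for Slc16a1. The higher mean of Bdh2 than of Slc16a1 thus rests on Bdh2-203. Oxct1, the transferase of ketone use, stood at 0.44 to 0.81 TPM.

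**Figure D3:**
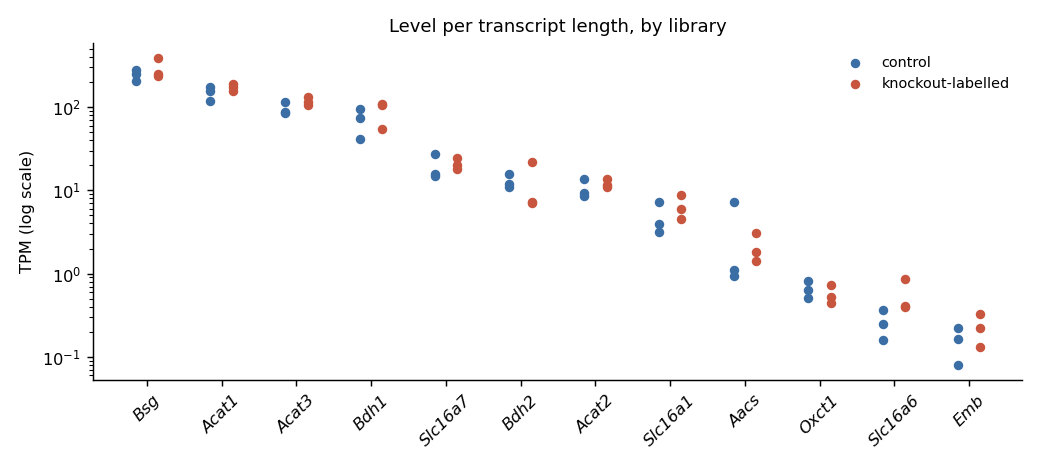
TPM (vertical axis, log scale) of the 5 genes and of 7 other genes of ketone metabolism and transport, 1 point per library, ordered by mean. Acat1 lies between 117.7 and 187.3 TPM and Oxct1 between 0.44 and 0.81 TPM, and the points of the groups overlap for Acat1, Bdh1, Bdh2, Slc16a1 and Slc16a7.

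Bdh1 has a pair of transcripts with separate start sites, whose levels followed different patterns over the libraries, with no test between them. They share 1478 bases, so the division of reads between them is an estimate. Bdh1-201 (1711 bases) and Bdh1-203 (3122 bases) hold the same 1029 coding bases and differ in their ends. Bdh1-203 has 240 bases of its own before the shared part and 1404 after it, and Bdh1-201 has 233 of its own at its start. The RefSeq promoter windows of both starts, from 250 bases before to 50 after each, are shown because the reads of the gene were divided between them. Both are on the plus strand of chromosome 16 (GRCm38.p6), with CG pairs in capitals, the windows lying at chr16:31422047-31422346 for Bdh1-201 and chr16:31428503-31428802 for Bdh1-203.
Bdh1-201: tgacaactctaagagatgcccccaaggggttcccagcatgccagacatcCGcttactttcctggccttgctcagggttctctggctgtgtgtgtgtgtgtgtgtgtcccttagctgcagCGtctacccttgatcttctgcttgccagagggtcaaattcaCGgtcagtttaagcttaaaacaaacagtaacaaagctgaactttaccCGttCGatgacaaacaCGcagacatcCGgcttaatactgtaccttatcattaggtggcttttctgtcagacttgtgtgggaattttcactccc
Bdh1-203: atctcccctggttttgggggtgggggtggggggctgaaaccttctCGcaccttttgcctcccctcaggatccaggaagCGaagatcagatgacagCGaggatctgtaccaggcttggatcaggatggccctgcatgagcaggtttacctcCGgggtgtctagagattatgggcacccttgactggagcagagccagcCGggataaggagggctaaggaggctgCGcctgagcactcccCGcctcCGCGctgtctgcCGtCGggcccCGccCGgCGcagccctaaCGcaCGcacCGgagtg
The window of Bdh1-201 held 7 CG pairs and 48.3% G and C, equal to the median of 7 pairs over 32841 RefSeq windows, while that of Bdh1-203 held 17 pairs and 63.7%, more pairs than 68.6% of windows. Neither held AGGTCA (a nuclear receptor element, in 16.3% of windows), CACGTG (an E-box, in 7.2%), CCAAT (in 37.4%) or TATAAA (in 13.6%), searched on both strands. Among the windows of the other genes, that of Slc16a1 held 42 CG pairs and 1 CACGTG, and that of Bdh2 held 6 CG pairs and 1 CCAAT.

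With TMM factors Bdh1-203 was lower in all 3 knockout-labelled libraries, though not past the threshold. Its levels were 109.8, 87.1 and 96.4 CPM in the controls (replicates 1 to 3) against 77.5, 71.2 and 62.9 CPM in the knockout-labelled libraries. Controls and knockout-labelled values did not overlap, as for 8.3% of 22297 transcripts tested, of which 2.8% had an unadjusted p under 0.05. On the log2 scale the difference was -0.47 (standard error 0.18), and the edgeR test gave an unadjusted p of 0.045 and an adjusted p above 0.99. It remained below 0 in each of 8 alternatives, at -0.23 when library totals replaced the TMM factors. With 1 library left out it was -0.40 to -0.60, but groups that do not overlap keep their sign when libraries are dropped. On deposited TPM the groups overlapped, at 24.6, 19.5 and 25.3 in controls against 21.1, 21.95 and 19.98 in knockout-labelled libraries (replicates 1 to 3). Estimated counts overlapped too. In knockout-labelled replicate 1, 94.7 counts went to Bdh1-204, a non-coding transcript that ends at the same base as Bdh1-203, and it had 0 counts in the other 5 libraries.

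Bdh1-201 followed the libraries and not the groups. Its levels were 37.4, 123 and 137 CPM in the controls (replicates 1 to 3) against 43.4, 142 and 136 CPM in the knockout-labelled libraries. Both libraries numbered 1 therefore lay far below the other 4, and the groups matched each other within that pattern (log2 difference 0.12, edgeR adjusted p above 0.99). As a share of the gene's TPM, Bdh1-201 was 40.1%, 73.5% and 73.6% across controls 1 to 3 and 43.0%, 79.7% and 80.9% across knockout-labelled libraries 1 to 3. The low totals of Bdh1 in both libraries numbered 1 thus lay in this transcript, since Bdh1-203 was highest of all in control replicate 1. Gm15743 overlaps exons of Bdh1 on the opposite strand, as Gm47862 does those of Slc16a7, and without stated use of strand their reads cannot be told apart.

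A similar division of libraries appeared in the transcripts of Acat1 and Bdh2. Acat1-203, a non-coding transcript of 500 bases that shares 337 bases with the middle of the coding transcript, took 33.8%, 14.8% and 13.3% of the gene's TPM across the controls, against 34.7%, 11.4% and 8.01% across the knockout-labelled libraries, each in the order 1 to 3. In CPM the coding transcript Acat1-201 had 381, 658 and 626 in the controls and 409, 552 and 595 in the other group, a log2 difference of -0.10 (edgeR adjusted p above 0.99). Both libraries numbered 1 thus had the lowest coding and the highest non-coding share.

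For Bdh2 the largest share of TPM in every library lay on a transcript annotated as non-coding. Bdh2-203 (819 bases) shares 789 bases with the later part of the coding transcript Bdh2-202 and took 81.1%, 73.5% and 69.4% of the gene's TPM in controls and 90.2%, 52.3% and 58.4% in knockout-labelled libraries. In CPM it measured 8.61, 7.01 and 8.24 in controls, against 14.3, 2.35 and 2.58 across the knockout-labelled libraries, so the high sum of Bdh2 in knockout-labelled replicate 1 came from this transcript. The coding transcripts Bdh2-202 and Bdh2-201 were each below 5 CPM in every library. Bdh2-202 was lowest in the libraries numbered 1, with 0.52 and 0.48 CPM, against 3.31 and 4.10 CPM in the other controls and 2.04 and 2.11 CPM in the other knockout-labelled libraries. The low values were 10.5 and 10.6 estimated counts. Bdh2-201, all of whose bases lie within Bdh2-202, went the other way. It was highest in the libraries numbered 1, at 2.35 CPM in controls and 1.82 CPM in the other group.

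Slc16a7 kept a constant make-up and Slc16a1 has a single transcript in these files. Slc16a7-202 (2238 bases) and Slc16a7-206 (10981 bases) hold the same 1452 coding bases, and the longer one adds 8217 bases after the shared part. Slc16a7-206 took 12.0% to 15.4% of the gene's TPM in all 6 libraries, with no difference in kind between the libraries numbered 1 and the rest. Of the 21 transcripts of the 5 genes 10 passed the filter, and the edgeR test over all transcripts called 0 of them, where it called 0% of all transcripts. Over 5303 coding genes that had at least 1% of their reads on non-coding transcripts, 27.9% had their highest shares in both libraries numbered 1, as Acat1 and Bdh2 did. Over the 5303 genes the median share was 8.17% in control replicate 1 and 7.55% in knockout-labelled replicate 1. It was 4.01% and 5.03% in the other controls, but 8.29% and 8.84% in knockout-labelled replicates 2 and 3. By that median the libraries numbered 1 did not stand apart. Why they differ from the rest in the transcripts above was not tested.

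**Figure D4:**
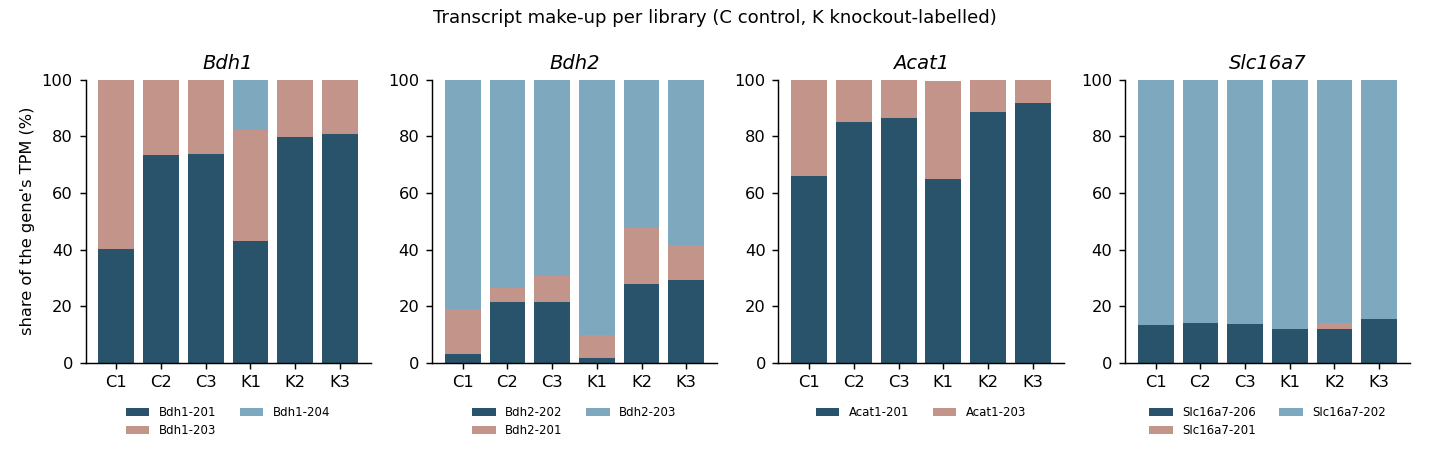
Share of each gene's TPM (vertical axis, percent) on its transcripts in control (C) and knockout-labelled (K) libraries 1 to 3, for transcripts that reach 1% in any library. C1 and K1 have the lowest shares of Bdh1-201, Bdh2-202 and Acat1-201, while Slc16a7 is divided alike in all 6.

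The other enzymes of the pathway did not separate the groups either. Of 13 listed partners 9 were tested, 0 were called, and 6 lay below 0 with a median log2 difference of -0.07, against 48.4% and a median of 0.01 over all genes tested. With library totals 2 lay below 0, and the median was 0.19 against 0.27 over all genes. Without control replicate 3, 4 lay below 0 with a median of 0.01. Hmgcs1, an enzyme of cholesterol synthesis, had a log2 difference of -0.25. Oxct1 had -0.52 and Aacs, the cytosolic acetoacetyl-CoA synthetase, -0.91, where control replicate 3 had 28.3 CPM and the other 5 libraries 3.72 to 11.4 CPM. The edgeR adjusted p of these 3 genes was 0.84 or more.

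Among the other monocarboxylate carriers and their chaperones Slc16a6 stood apart, below the threshold. Slc16a6 encodes a carrier that exports ketone bodies from hepatocytes. Its levels were 1.01, 0.88 and 1.29 CPM in the controls (replicates 1 to 3) against 2.03, 1.86 and 3.65 CPM in the knockout-labelled libraries. These values rest on few counts, since 3 counts corresponded to 0.126 to 0.164 CPM, depending on the library. All 3 knockout-labelled libraries lay above all controls, as for 4.79% of genes. On the log2 scale the difference was 1.24 (standard error 0.39), with an unadjusted p of 0.012 and an edgeR adjusted p of 0.84. Without knockout-labelled replicate 3 it was 0.87, and with an effective length offset 0.79. On deposited TPM with a pseudocount of 1 it was 0.29. That pseudocount exceeds the gene's own TPM and so shrinks the difference. The TPM was 0.16 to 0.37 in controls and 0.40 to 0.86 in knockout-labelled libraries. Exons of Slc16a6 overlap those of Arsg and Amz2 on the opposite strand, and without stated use of strand their reads cannot be told apart. Arsg, a sulfatase gene, measured 7.67, 11.4 and 7.86 CPM in controls and 15.8, 14.6 and 14.3 CPM in knockout-labelled libraries (log2 difference 0.73, edgeR adjusted p = 0.84). Its groups did not overlap either. Amz2, a metallopeptidase gene, measured 12.4, 16.4 and 13.0 CPM in controls against 14.1, 10.9 and 10.2 CPM (log2 difference -0.24), with overlapping groups. The part of either gene's reads in the Slc16a6 value was not tested.

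Of the 16 carriers and chaperones 11 were tested, 0 were called and 9 lay below 0, with a median of -0.08. With library totals 4 lay below 0, and the median was 0.17 against 0.27 over all genes. Without knockout-labelled replicate 1, 5 lay below 0 with a median of 0.02. Slc16a9, a carnitine carrier, was lower in all 3 knockout-labelled libraries with TMM factors, as 4.55% of genes were. It measured 1.98, 1.81 and 1.76 CPM against 2.13, 2.03 and 4.00 CPM in controls (log2 difference -0.55, edgeR adjusted p = 0.84). Control replicate 3 stood far above the other libraries, and with library totals the groups overlapped. Slc16a12 had a log2 difference of -0.31, with overlapping groups. Bsg, the chaperone that brings MCT1 to the membrane, had 203 to 388 TPM, and Emb, a chaperone of MCT2, 0.081 to 0.32 TPM.

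Mitochondrial beta-oxidation, which feeds ketone synthesis, had a median below that of all genes with TMM factors and with library totals, with no gene past the threshold. Of 18 genes tested 0 were called and 14 lay below 0, with a median of -0.23 against 0.01 over all genes. With library totals 6 lay below 0, and the median was 0.03 against 0.27 over all genes. With 1 library left out 12 to 15 lay below 0, and the median was -0.14 without control replicate 2 or knockout-labelled replicate 1. Cpt2, which releases fatty acids from carnitine inside mitochondria, measured 196, 217 and 208 CPM in controls and 156, 148 and 163 CPM in knockout-labelled libraries. Its groups did not overlap (log2 difference -0.41, standard error 0.19, edgeR adjusted p = 0.84), as for 4.55% of genes on the lower side, and the difference was -0.15 with library totals. The carnitine carrier Slc25a20 (-0.29) and the acyl-CoA dehydrogenase Acadvl (-0.22) were also free of overlap. When library totals replaced the TMM factors, the groups of Cpt2, Slc25a20 and Acadvl overlapped. Decr1, an enzyme for unsaturated fatty acids, had -0.47 and Etfb, an electron carrier subunit, -0.51, with overlapping groups.

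Regulators of ketone synthesis had a median above that of all genes, with no gene past the threshold. Of 12 tested 0 were called and 9 lay above 0 with a median of 0.23, against 51.6% and a median of 0.01 over all genes. With library totals 11 lay above 0, and the median was 0.51 against 0.27 over all genes. Without knockout-labelled replicate 2, 7 lay above 0 with a median of 0.12, and without control replicate 2, 7 did with 0.15. The median was also 0.15 without knockout-labelled replicate 1. Foxa2, a hepatocyte transcription factor of fasting, measured 11.5, 16.2 and 11.7 CPM in controls and 22.6, 21.9 and 16.0 CPM in knockout-labelled libraries (log2 difference 0.62, unadjusted p of 0.025, edgeR adjusted p = 0.84). Control replicate 2 lay just above knockout-labelled replicate 3, so the groups overlapped. Ppara, the nuclear receptor that drives ketogenic genes, had a log2 difference of 0.43, its coactivator Ppargc1a 0.49 and the lipid droplet protein Plin5 0.50, none past the threshold. The 3 genes of the list below 0 were Pdk4 (-0.44), Mlycd (-0.14) and Angptl4 (-0.06). Ppara measured 10.01 CPM in knockout-labelled replicate 1, below the controls at 11.5 to 11.7 CPM, and 18.3 and 18.5 CPM in replicates 2 and 3. Those are the libraries with the high mitochondrial shares given above, and they also had the most transcripts above 0, 36.6% and 38.0% against 30.4% to 31.4% in the other 4. The part of this in the values of the regulators was not tested.

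**Figure D5:**
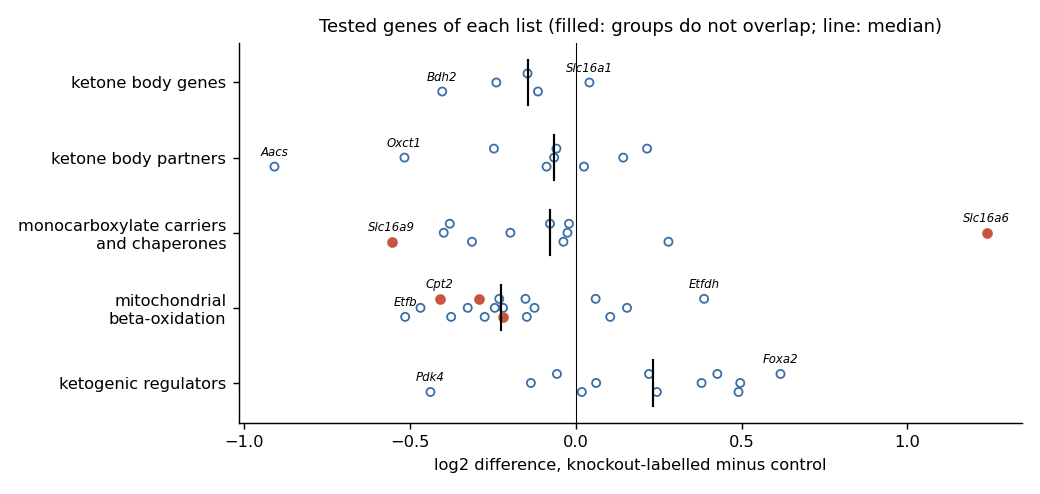
Log2 difference of each tested gene, knockout-labelled minus control with TMM scaling (horizontal axis), by gene list, with filled points where the groups do not overlap and a line at each list's median. The 5 ketone body genes have no filled point, Slc16a6 lies farthest to the right at 1.24, and the beta-oxidation median lies at -0.23.

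Markers of hepatocyte zones and other cells were read beside these genes. Of 9 periportal markers 8 lay above 0 and of 9 pericentral markers 8 lay below 0, and the summed pericentral level was 11390 to 16780 CPM in controls and 8291 to 13050 CPM in the other group. With library totals these counts were 9 above and 6 below, and with 1 library left out 5 to 8 above and 6 to 8 below. The pericentral median was -0.39 and, without control replicate 3, -0.17, and the periportal median was 0.32 and, without control replicate 2, 0.19. Kupffer cell and macrophage markers numbered 10, of which 10 had differences under 0 (median -0.61) and 7 did so on deposited TPM. Without control replicate 3, which had 714 CPM of them, 5 did so and the median was -0.0017. The median of 5 red blood cell markers was -0.97, each of them below 0, also with library totals and on TPM. No marker list had a called gene or a gene at 0 in every library. Their part in the values of the 5 genes was not tested.

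The genes most alike in pattern were found over 10958 protein-coding genes by Pearson's r of log2 CPM across the 6 libraries, as a description. For Acat1 these were Ppp4r2 (r = 0.998) and Jam2 (0.995), and for Bdh1 Ldah (0.985) and Mtrf1l (0.978). For Bdh2 they were Rnf8 (0.994) and Ccdc12 (0.993), for Slc16a1 Ptpn9 (0.987) and Fut8 (0.966), and for Slc16a7 Lfng (0.978) and Ak4 (0.976). With so few libraries many genes reach a high value, as 439 did r of 0.9 with Bdh2, 313 with Acat1, 63 with Bdh1, 44 with Slc16a7 and 19 with Slc16a1. None of these lists contained another of the 5 genes among its leading pair.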

How the data were processed

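Liver RNA of 6 libraries was sequenced after oligo(dT) selection, per the labels' protocols. The deposited files, in Salmon's column layout per the file headers, give the estimated count and the TPM of 115221 transcripts per library, the estimated counts not scaled to depth and the deposited TPM scaled to the same total in each library. The length and effective length of each transcript stand beside them as other deposited columns. The labels do not state the quantifier's version or its transcriptome. The submitters' processing notes name Bowtie2 2.2.5, RSEM 1.2.8, DESeq and GRCm38 with no role.

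GENCODE M21 (GRCm38) gave the gene of each transcript. Of the identifiers 113664 matched without their version and 1557 did not and were left out. Lengths equalled the annotation's for 99.2%. Estimated counts were summed per gene, rounded, filtered with filterByExpr, scaled with TMM and tested two-sided with edgeR 4.0.16 (quasi-likelihood, group only, Benjamini-Hochberg over all genes, threshold 0.05) in R 4.3.3. Transcripts were tested likewise. Standard errors are the absolute log2 difference over the square root of F, and intervals use the test's total degrees of freedom. Alternatives used DESeq2 1.42.0, limma 3.58.1, other scalings and filters, deposited TPM with a pseudocount of 1, effective length, a loess trend over length and GC content, left-out libraries and the replicate number as a block.

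The 5 genes and the lists were chosen with earlier results of these data known. Named genes are the 5, G3bp1, up to 4 per list with the smallest p (some are not reported here), and the best-correlated pair of named protein-coding genes of at least 1 CPM for each. Acadvl, Arsg, Amz2, Bsg, Emb, Pdk4, Mlycd, Angptl4 and, where groups did not overlap, other list members were added after their values were seen. Tests were checked on simulated counts. The number of libraries limits precision. Among the 5 genes counting error is largest for Bdh2 (127 to 382 counts), and it is larger for list genes of lower level, such as Slc16a6, Slc16a9, Oxct1 and Emb.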

Additional observations from a re-analysis of the deposited data

How the results depend on the processing

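None of the 5 genes passed the threshold in any of the 18 alternatives, and of the 5 only Bdh2 kept its direction in all 18. Bdh1 turned to 0.11 with library totals, 0.36 on deposited TPM, 0.0038 with the effective length offset and, with 1 library left out, ran from -0.31 to 0.052. Acat1 turned to 0.15 with library totals and 0.22 on deposited TPM, and ran from -0.31 to 0.017 with 1 library left out. Slc16a7 turned to 0.15 on deposited TPM and ran from -0.35 to -0.01. Slc16a1 turned to -0.041 with the length and GC trend removed and ran from -0.17 to 0.51. Without both libraries numbered 1, chosen after seeing the data, it was -0.18 and Bdh2 -1.17. Bdh2 ran from -1.14 to -0.13 with 1 library left out. The causes were not tested, except that library totals and TPM also moved the median of all genes, to 0.27 and 0.22. TMM factors were 0.84 to 1.00 in controls and 1.07 to 1.14 in knockout-labelled libraries.

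The number of genes called was 0 in the fit described and 11 by DESeq2, 6 higher and 5 lower, and ran from 0 to 3 with 1 library left out, 3 without knockout-labelled replicate 1. Unadjusted p under 0.05 was found for 568 genes. The number of transcripts called among the 5 genes was 0 in every setting run. The replicate block called 0 genes and gave 0.11 for Slc16a1, -0.16 for Bdh1, -0.60 for Bdh2. The replicate numbers were not taken to pair the libraries, since deviations of same-numbered libraries correlated at 0.195, 0.275 and -0.145 and not every library correlated best with its own number. Both libraries numbered 1 do have a high share of all coding-gene reads on non-coding transcripts, 5.50% and 5.86%. The median share per gene, at 8.17% and 7.55%, was not higher there than in knockout-labelled replicates 2 and 3, at 8.29% and 8.84%.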
